A study of Mus musculus with 3 samples.

Results

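E proteins are the transcription factors Tcf3, Tcf12 and Tcf4, and the Id proteins Id1, Id2 and Id3 are their inhibitors. These 6 genes were chosen by name, without a rule on measured values, though earlier results of these data were known. They are among the 27734 genes listed in all 3 runs of a single-cell RNA-seq study of early mouse thymocytes. Their unique molecular identifier (UMI) counts were read in 21879 of the 23283 deposited cells, all those in which 500 to 5000 genes were detected and mitochondrial genes took at most 7% of UMIs. The thymocytes came from C57BL/6 mice at 6 weeks of age, with 4 thymi pooled for each run and CD4+ and CD8+ cells depleted. Run 1 held double negative (DN) thymocytes of every stage together with TCRγδ+ cells, while run 2 was restricted to DN1 and DN2 cells, which are CD44+, and had TCRγδ+ cells sorted out. For run 3, sorted DN1 and DN2 cells, DN3 cells and TCRγδ+ cells were put back together in 1 library. All sorts left out cells stained for CD4, CD8, B220, CD11b, CD11c, NK1.1 or TCRβ. Each sort was made once, so the runs are not replicates of a sort. A p-value below rests on a spread estimated over all gates and runs together and shared between genes. It is thus not the spread of the compared gates alone, and it covers only these libraries of pooled mice.

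E proteins are basic helix-loop-helix factors that bind DNA as dimers at E-box sites. Id proteins have the helix-loop-helix but lack the basic region, so that an E protein paired with an Id protein cannot bind DNA. In the thymus, E proteins are known to drive T lineage specification and rearrangement of receptor genes, and Id3 is known to be induced by T cell receptor signals through ERK and the Egr factors. Id2 is known for its role in natural killer and other innate lymphocytes.

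Stretches of 5 members are shown so that the reader can see how near the Id genes, and Tcf3 and Tcf12, are to each other in sequence. They are the 90 in-frame coding bases most alike between the Id genes, and between Tcf3 and Tcf12, in GENCODE vM21 transcripts of mm10. Capitals mark bases that are the same in every gene of the group. In the Id genes, all 3 stretches lie in coding exon 1, within the helix-loop-helix that pairs with E proteins.
Id1, chr2:152736548-152736637, plus strand: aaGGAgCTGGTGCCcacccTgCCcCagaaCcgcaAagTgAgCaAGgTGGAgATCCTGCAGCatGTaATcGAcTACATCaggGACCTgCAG
Id2, chr12:25095783-25095872, minus strand: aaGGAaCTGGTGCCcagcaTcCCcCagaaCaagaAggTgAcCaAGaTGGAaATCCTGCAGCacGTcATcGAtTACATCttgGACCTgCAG
Id3, chr4:136144032-136144121, plus strand: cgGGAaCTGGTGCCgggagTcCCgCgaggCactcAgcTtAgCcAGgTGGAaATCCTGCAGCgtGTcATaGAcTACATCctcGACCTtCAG
Tcf3, chr10:80410246-80412887, minus strand, exons 18 and 19: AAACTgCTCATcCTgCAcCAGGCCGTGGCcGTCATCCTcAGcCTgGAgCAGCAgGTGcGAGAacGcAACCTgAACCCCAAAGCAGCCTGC
Tcf12, chr9:71849897-71856365, minus strand, exons 19 and 20: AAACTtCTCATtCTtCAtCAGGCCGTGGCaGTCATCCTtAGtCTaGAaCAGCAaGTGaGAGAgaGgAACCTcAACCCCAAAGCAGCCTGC
Over these windows, 56 of 90 bases were the same in all 3 Id genes and 75 of 90 in Tcf3 and Tcf12. Identity was 82.2% between Id1 and Id2, 71.1% between Id2 and Id3 and 66.7% between Id1 and Id3. Over whole transcripts, the longest exact run that any pair of members had in common was 47 bases, between Tcf12 and Tcf4, the latter not shown above. Id2 and Id3 had 19 in common and Tcf3 and Tcf12 had 18.

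Cells were placed in 12 gates by the presence of at least 1 UMI of marker genes, none of them a member, and a gate is called "like" the stage its markers stand for. The stage gates were ETP-like (the earliest progenitors), DN2a-like, DN2b-like, and resting, cycling and signaled DN3-like, the last of these with transcripts of the activation genes Cd5, Cd69 or Nr4a1, followed by DN4-like. The other gates were Sox13+ γδ-like (Trdc and Sox13, no Ptcra), type 1-like (natural killer receptor or type 1 genes), type 17-like, B cell-like and myeloid-like. They took 56.5%, 76.5% and 87.3% of the kept cells of runs 1, 2 and 3, whose median cell held 5989.5, 4844 and 8507 UMIs. Of 11 genes outside the gates, several differed between gates in the direction that the names give. Hhex, a progenitor gene, stood at 189 and 152 CPM (the gene's count scaled by all UMIs of the gate in that run) in ETP-like cells of runs 2 and 3 against 35.5 and 23.8 CPM in DN2a-like cells, and Notch3 was at 58.9 to 149.9 CPM in resting DN3-like cells against 14.6 to 21.7 CPM in DN2a-like cells. Blk and Etv5, genes of developing γδ cells, were at 141 to 192 and 92.6 to 159 CPM in Sox13+ γδ-like cells, against 11.03 to 15.6 and 0.760 to 2.91 CPM in resting DN3-like cells. Bcl11b, a gene of T lineage commitment, set ETP-like cells apart but did not separate the 2 DN2 gates as their names would have it. It was at 64.6 and 51.9 CPM in ETP-like cells of runs 2 and 3. In runs 1, 2 and 3 it was at 533, 368 and 639.9 CPM in DN2a-like and 484, 371 and 714 CPM in DN2b-like cells. Il7r was lower in ETP-like (29.8 and 37.1 CPM) than in DN2a-like cells (67.3 and 202 CPM) of runs 2 and 3. The type 1-like gate was mixed. Its marker Nkg7 was also at 322 to 385 CPM in DN2a-like cells, so stricter gates chosen after seeing the data are given below. Run 2 held 533 resting DN3-like and 390 Sox13+ γδ-like cells, although it was sorted for DN1 and DN2 cells without TCRγδ+ cells, so the main differences are also given without it. Runs 1 and 2 had 72 cell barcodes in common, runs 1 and 3 had 1, and runs 2 and 3 had 0.

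Before gates were compared, the level of each member was set side by side between runs, and the runs stood apart for the same gate. Over 8 T lineage gates, the Tcf3 level in run 3 was 0.254 to 0.399 times that in run 1, while the Tcf12 level was 1.47 to 3.05 times and the Tcf4 level 1.62 to 2.73 times that in run 1. Each of these held in all 8 gates. Id2 was 2.65 to 14.7 times as high in run 2 as in run 1 over 7 gates, and 0.452 to 0.650 times as high in run 3 as in run 2 over 8 gates. Id3 was 0.140 to 0.795 times as high in run 3 as in run 1. Run 3 listed 32285 genes and the other runs 28692, so the annotation, the kit and the sort, which all may differ between runs, cannot be told apart. For this reason gates are compared only within a run.

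**Figure D1:**
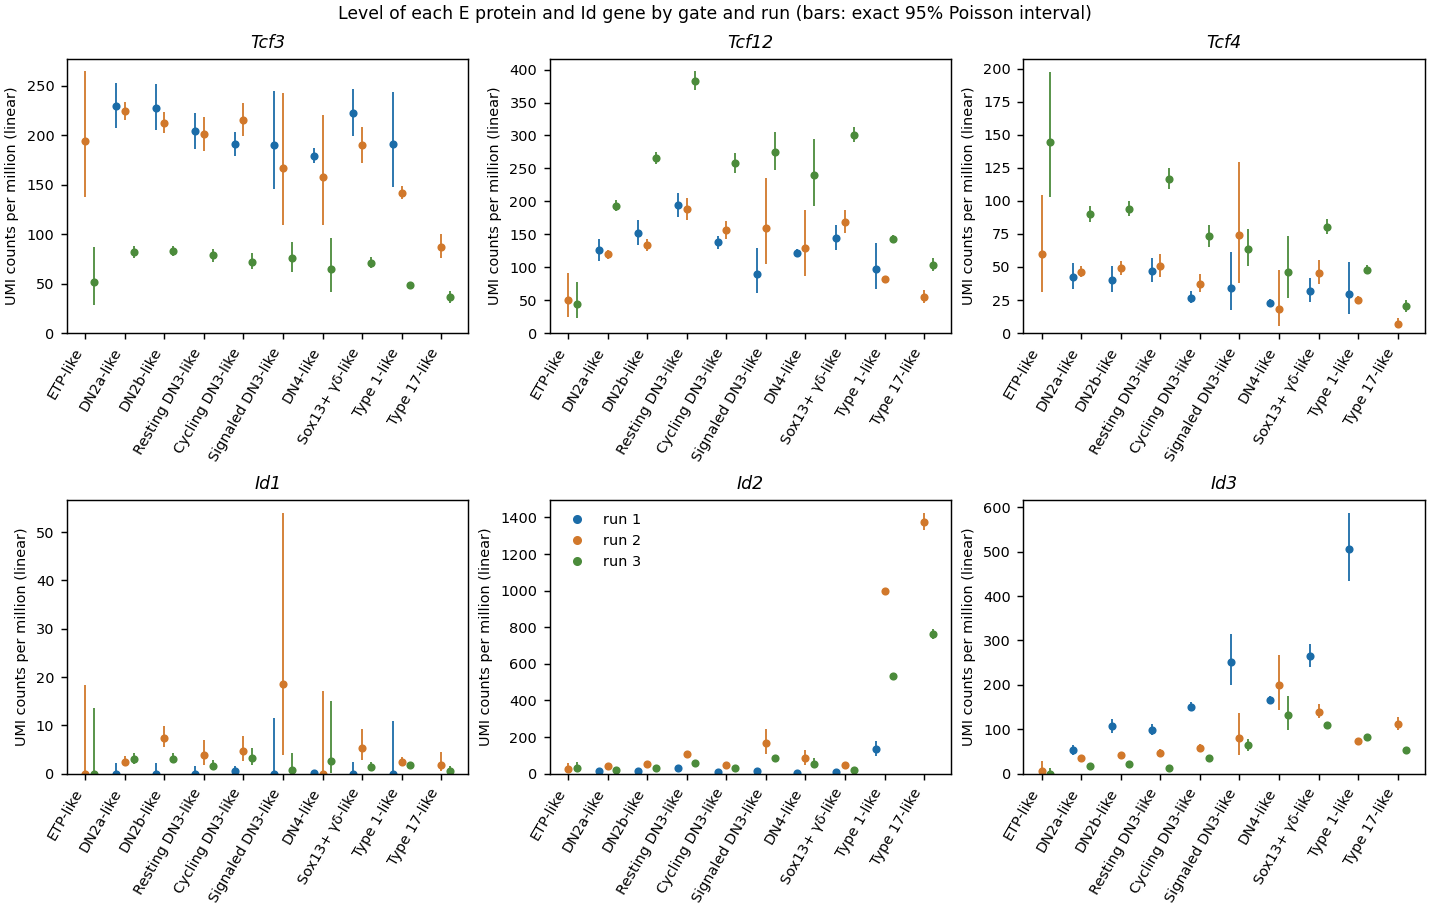
CPM (linear axis) for each of the 6 genes by gate, with blue, orange and green points for runs 1, 2 and 3 and bars for the exact 95% Poisson interval, in gates with at least 10 cells. Over the T lineage gates, Tcf3 lies lowest in run 3, with 78.5 CPM against 204 and 201 CPM in resting DN3-like cells, Tcf12 peaks in resting DN3-like cells, and Id2 is highest in the type 17-like gate.

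The E protein genes were transcribed in every T lineage gate, and their order differed from gene to gene. Tcf12 was highest in resting DN3-like cells, at 194 CPM (95% Poisson interval 177 to 212, counting error only) in run 1, 188 (171 to 205) in run 2 and 383 (368 to 397) in run 3. In run 1, the next gates were DN2b-like at 151 CPM, Sox13+ γδ-like at 144 and cycling DN3-like at 138, whose intervals overlapped. Among T lineage gates, the lowest Tcf12 levels in runs 2 and 3 were in ETP-like cells, at 49.7 and 44.5 CPM, and in type 17-like cells, at 54.5 and 103 CPM. Resting DN3-like cells thus led the T lineage gates in each run, although in run 2 their interval overlapped that of Sox13+ γδ-like cells at 169 CPM (153 to 187). A stricter γδ-like gate, described below, had 166, 248 and 394 CPM in runs 1, 2 and 3. In runs 2 and 3 this was above the resting DN3-like level, with overlapping intervals in both runs. Tcf3 was flatter. Among the DN2, DN3, DN4 and γδ gates with at least 20 cells, it ranged from 179 to 229 CPM in run 1, from 157 to 224 in run 2 and from 64.7 to 82.8 in run 3, and many neighbours in that order had intervals that overlapped. Among T lineage gates, Tcf3 was lowest in type 17-like cells, at 87.1 and 36.1 CPM in runs 2 and 3. Tcf4, also known from plasmacytoid dendritic cells and B cells, was at 214 CPM in the B cell-like gate of run 3 and at 59.6 and 145 CPM in ETP-like cells of runs 2 and 3, while it fell to 7.04 and 20.1 CPM in type 17-like cells.

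Id1 was near the detection limit. In the T lineage gates with at least 20 cells, it lay between 0 and 7.44 CPM, and run 1 held 9 Id1 UMIs in 5516 cells. Resting DN3-like cells of run 1 had 0 Id1 counts, which allows a level of up to 1.25 CPM (3 counts of the total). Id1 passed no test below.

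The order of gates differed between Id2 and Id3, although in run 1 the type 1-like gate led for both. Id2 stood at 1377 (1329 to 1426) and 762 (737 to 789) CPM in type 17-like cells of runs 2 and 3, and at 135, 996 and 536 CPM in type 1-like cells of runs 1, 2 and 3. Outside these gates, Id2 was at most 107 CPM in any T lineage gate with at least 20 cells except the signaled DN3-like gate, where 13 cells of run 2 gave 166 CPM. The type 1-like and type 17-like levels thus lay above every other T lineage gate of their run. For Id3, the highest level in run 1 was in type 1-like cells at 506 CPM, followed by Sox13+ γδ-like cells at 265 CPM (240 to 291) and signaled DN3-like cells at 252 CPM (201 to 314), whose intervals overlapped. In runs 2 and 3, DN4-like cells led with 199 (144 to 268) and 132 (97.7 to 175) CPM from 23 and 32 cells, beside Sox13+ γδ-like cells at 139 and 109.6 CPM, again with overlapping intervals. DN4 cells were not among the stages sorted for these runs. ETP-like cells held 1 and 0 Id3 UMIs in runs 2 and 3.

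To describe the balance, the counts of the 3 Id genes were taken as a percent of the counts of all 6 members. The UMI counts come from transcript 3′ ends and are not per length, so that this Id share compares gates within a run and is not a ratio of proteins. It was low in ETP-like cells, at 8.96% (exact Clopper-Pearson 95% interval 3.36 to 18.5) in run 2 and 12.2% (5.71 to 21.8) in run 3, and in DN2a-like cells, at 14.8%, 17.4% and 9.85% in runs 1, 2 and 3. The intervals of these 2 gates overlapped, and in run 3 the ETP-like value was the higher one. DN2b-like cells had 22.4%, 21.1% and 10.98%. Resting DN3-like cells had 22.5%, 26.5% and 11.2%, and cycling DN3-like cells 31.2%, 21.4% and 14.8%. The order of these gates therefore differed between run 2 and the other runs. It also depended on the processing. With the cells of highest doublet score removed, resting and cycling DN3-like cells of run 2 both had 18.8%. With cells thinned to equal depth before gating, resting DN3-like cells had the higher value in every run. They had 16.7%, 24.0% and 11.1%, against 15.5%, 21.6% and 10.5% in the 48, 60 and 37 cycling DN3-like cells left. The cycling values rested on 9, 16 and 4 Id counts, too few to order the 2 gates. Sox13+ γδ-like cells had 40.9% (37.9 to 43.9), 31.9% (29.4 to 34.5) and 22.8% (21.6 to 23.9), above the DN2 gates and both resting and cycling DN3-like gates of the same run. DN4-like cells had 34.7%, 48.0% and 35%, above the γδ-like value in runs 2 and 3, whose sorts did not include DN4 cells. Signaled DN3-like cells had 45.7% (38.4 to 53.1) and 26.5% (23.3 to 29.8) in their 24 and 90 cells of runs 1 and 3. These were also above the γδ-like values of their run, with intervals that overlapped. With the cells of highest doublet score removed, the 71 signaled cells left in run 3 had 17.6%, below the γδ-like value of 21.7%.

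Id transcripts were in the majority in the type 1-like gate, at 66.9%, 81.1% and 72.2% in runs 1, 2 and 3, and in the type 17-like gate, at 90.9% and 83.6% in runs 2 and 3. These 5 of the 29 sums of a gate and a run with at least 20 cells were the ones above 50%. Run 1 had 4 type 17-like cells, too few for a value. Which Id gene made up the share also differed. Id2 gave 92.9% and 86.3% of the Id counts in type 1-like cells of runs 2 and 3 but 21.1% in the 61 cells of run 1, where most were Id3. It gave 92.4% and 93.4% in type 17-like cells of runs 2 and 3. In Sox13+ γδ-like cells it gave 3.67%, 23.7% and 16.6%, so that most of their Id counts were Id3. Resting DN3-like cells lay between in runs 2 and 3, with 67.9% and 79.0%. In run 1 they had 23.8%, above both the type 1-like and the Sox13+ γδ-like value.

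**Figure D2:**
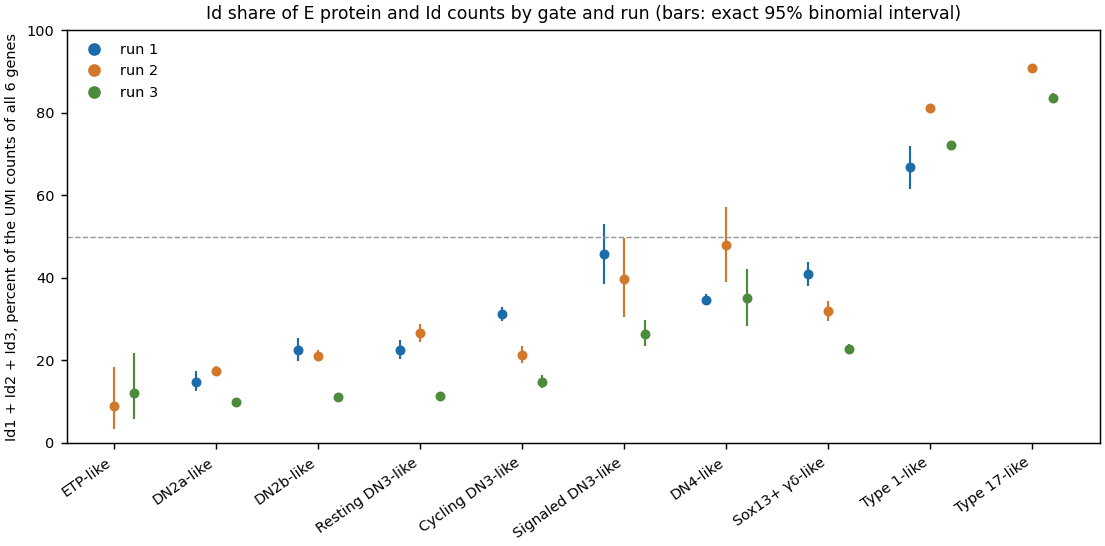
Id1, Id2 and Id3 counts as a percent of the counts of all 6 members (linear axis from 0 to 100) by gate, with 1 point per run and exact 95% binomial intervals, in gates with at least 10 cells. The dashed line marks 50%, and the points above it are those of the type 1-like gate, at 66.9% to 81.1%, and the type 17-like gate, at 83.6% and 90.9%.

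The same pattern was sought in single cells after each was thinned to 2000 UMIs. In the type 1-like gate, 34.4%, 56.9% and 47.2% of thinned cells of runs 1, 2 and 3 held Id but no E protein UMIs and 27.9%, 19.8% and 16.4% held both. In resting DN3-like cells, 50.7%, 50.1% and 60.6% held E protein UMIs alone. At most 6 cells of a gate were left out as too shallow. Id2 was seen in 16.4%, 73.0% and 56.9% of thinned type 1-like cells of runs 1, 2 and 3 (26.2%, 80.7% and 74.6% before thinning). In Sox13+ γδ-like cells, a gate taken as the low reference, it was seen in 2.53%, 8.21% and 4.16% (5.49%, 18.2% and 16.1% before thinning). Median depths were 4310, 3007 and 6842 UMIs in the type 1-like gate and 5290, 4218 and 8152 in the Sox13+ γδ-like gate. In run 1, Id3 was seen in 50.8% of thinned type 1-like cells, more than Id2. Id3 was seen in 36.3%, 27.9% and 21.0% of thinned Sox13+ γδ-like cells of runs 1, 2 and 3 and in 11.6%, 6.75% and 1.85% of resting DN3-like cells. Before thinning these were 57.8%, 41.8% and 45.0% against 22.6%, 13.9% and 8.49%, with median depths of 5290, 4218 and 8152 against 3297, 4672 and 7308 UMIs.

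Gates were then compared across all genes by edgeR, with run as a block and p-values adjusted over all genes tested. From ETP-like to DN2a-like cells, Tcf12 rose. It was at 49.7 (23.8 to 91.4) and 44.5 (23.0 to 77.7) CPM in the 22 and 19 ETP-like cells of runs 2 and 3, against 119.8 and 194 CPM in DN2a-like cells. The levels did not overlap, and the log2 difference was 1.86 ± 0.27 (SE, 2 runs, adjusted p = 1.61e-05). Tcf12 was the 1 member of 6 that passed, where 3.91% of the 11300 genes tested passed. Tcf4 stood at 46.4 and 90.1 CPM in DN2a-like cells against 59.6 and 145 CPM in ETP-like cells, and its difference of -0.58 ± 0.22 was not called (adjusted p = 0.163). Gates with at least 10 cells were used here, a choice made after seeing the data, and without run 3 the Tcf12 call was lost (1.37, adjusted p = 0.159). Counts of 4 globin genes, markers of erythroid cells, summed to 407 and 22.2 CPM in these ETP-like cells against 95.2 and 83.9 CPM in DN2a-like cells. In ETP-like cells nearly all of this was Hbb-bt, with 80 and 6 counts in runs 2 and 3. Hbb-bs and Hba-a2 had 1 count each in run 2 and 0 in run 3, and Hba-a1 had 0 in both. The part of the globin transcripts in the result was not tested.

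From DN2a-like to resting DN3-like cells, Id2 and Tcf12 rose in every run. Tcf12 went from 126, 119.8 and 194 CPM to 194, 188 and 383 CPM in runs 1, 2 and 3, by 0.76 ± 0.11 on the log2 scale (3 runs, adjusted p = 3.54e-06). Id2 went from 16.7, 44.3 and 20.02 CPM to 30.8, 107 and 57.8 CPM, by 1.39 ± 0.23 (adjusted p = 2.13e-05). Within a run the 2 gates lay apart for both genes, while over runs their levels overlapped. Without run 2, the differences were 0.83 for Tcf12 (adjusted p = 0.000366) and 1.43 for Id2 (adjusted p = 0.00235). Tcf4 rose by 0.26 ± 0.10 (adjusted p = 0.0461), from 42.1, 46.4 and 90.1 to 47.0, 50.5 and 116.9 CPM, a call that most alternatives lost, among them leaving out any 1 run. Id3 was 52.4, 35.7 and 16.9 CPM in DN2a-like and 98.6, 47.1 and 13.8 CPM in resting DN3-like cells, higher in 2 runs and lower in the other, and was not called (0.30 ± 0.30, adjusted p = 0.488). Tcf3 was not called either (-0.13 ± 0.13, adjusted p = 0.469). Thus 3 of 6 members passed, all higher in resting DN3-like cells, where 28.9% of 12035 genes tested passed. The members' median difference was 0.28 and that of all genes tested 0.02.

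Several of the 7 marker genes of the type 1-like gate were also above their DN2a-like level in resting DN3-like cells. Id2 there was at 22.7%, 10.8% and 10.8% of its type 1-like level in runs 1, 2 and 3. The chemokine gene Ccl5 was at 9.38%, 7.45% and 6.94% of its type 1-like level, the receptor gene Klrd1 at 5.30%, 5.99% and 2.39% and Il2rb at 1.74%, 5.41% and 3.72%, while in DN2a-like cells these 3 genes were at most 0.308%. Klrk1 was at 5.65%, 5.55% and 2.55% of its type 1-like level in resting DN3-like cells, Xcl1 at 1.23%, 6.85% and 2.16% and Cxcr3 at 0%, 5.17% and 2.88%, against at most 0.979% in DN2a-like cells. Nkg7 went the other way, with 31.8%, 23.4% and 17.9% in resting DN3-like against 64.8%, 31.8% and 38.0% in DN2a-like cells. The type 1-like gate came before the other T lineage gates in the order. Cells with enough of its markers, Nkg7 among them, had thus already left the later gates. These percentages therefore depend in part on the gating. A list of 5 B cell markers summed to 70.3 to 77.2 CPM in resting DN3-like and 42.5 to 44.7 CPM in DN2a-like cells, with 1 to 4 and 1 to 5 of them detected in a run, and nearly all of it was Cd79b, at 72.8, 70.3 and 75 CPM in resting DN3-like cells. Cd79a was at 0 there in runs 1 and 2. The part of these transcripts in the Id2 result was not tested. With the 8% of cells of highest doublet score removed from each run, the Id2 difference was 0.94 (adjusted p = 0.0291), and with cells thinned to 2000 UMIs before gating it was 1.03 and not called (adjusted p = 0.0534).

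Cycling DN3-like cells had more Id3 and less Id2, Tcf12 and Tcf4 than resting DN3-like cells. Id2 was 9.57, 47.4 and 30.8 CPM in cycling and 30.8, 107 and 57.8 CPM in resting cells of runs 1, 2 and 3, a difference of -1.13 ± 0.23 (3 runs, adjusted p = 0.000227). Id3 was 151, 58.9 and 35.8 CPM in cycling and 98.6, 47.1 and 13.8 CPM in resting cells (0.81 ± 0.29, adjusted p = 0.0250). Each was on the same side in all 3 runs, though levels over runs overlapped. Ccl5 was at 0.820%, 1.27% and 4.12% of its type 1-like level in cycling cells, against 9.38%, 7.45% and 6.94% in resting cells. Klrd1 was at 0.271%, 1.27% and 1.90% against 5.30%, 5.99% and 2.39%. Of the type 1-like markers, Xcl1 in run 3 and Cxcr3 in run 1 went the other way. The part of these transcripts in the Id2 difference was not tested. Tcf12 fell by 0.39 ± 0.11 (adjusted p = 0.00544) and Tcf4 by 0.60 ± 0.10 (adjusted p = 3.50e-05), while Tcf3 differed by 0.02 ± 0.13 (adjusted p = 0.918), a value whose sign turned with DESeq2 (-0.02) and without normalization factors (-0.03). In all, 4 of 6 members passed, 1 higher and 3 lower, where 38.1% of genes tested passed. The members' median was -0.18 against -0.11 for all genes. Cycling cells were deeper, with medians of 10596.5, 9664 and 16144 UMIs against 3297, 4672 and 7308 in resting cells. The Id3 call was lost with DESeq2 (adjusted p = 0.117) and without run 3 (0.101), and without run 2 Id3 differed by 1.04 and Id2 by -1.08, both called. Id3 turned to -0.16 with cells thinned before gating, which left 37 to 60 cycling cells in a run.

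Signaled DN3-like cells, 24 in run 1 and 90 in run 3, had more Id3 and less Tcf12 and Tcf4 than resting DN3-like cells. Id3 was 252 (201 to 314) and 63.8 (50.9 to 79.0) CPM against 98.6 and 13.8 CPM in resting cells of these runs, a log2 difference of 1.54 ± 0.41 (2 runs, adjusted p = 0.0148). The signaled cells were the higher ones in both runs, and over runs the levels overlapped. Tcf12 was 90.4 and 276 CPM against 194 and 383 CPM (-0.55 ± 0.15, adjusted p = 0.0135), and Tcf4 was 34.3 and 63.8 CPM against 47.0 and 116.9 CPM (-0.75 ± 0.17, adjusted p = 0.00375). Id2 went opposite ways, with 12.5 CPM (3.40 to 31.9) against 30.8 in run 1 and 85.0 CPM (70.0 to 102) against 57.8 in run 3, and was not called (0.33 ± 0.31, adjusted p = 0.572). Tcf3 was not called (-0.07 ± 0.19, adjusted p = 0.860). Here 3 of 6 members passed, 1 higher and 2 lower, where 10.3% of genes tested passed. Signaled cells were deeper, with medians of 12473 and 12792.5 UMIs against 3297 and 7308 in resting cells. Removing the cells of highest doublet score left 17 and 71 signaled cells in runs 1 and 3. The Id share of those in run 3 went from 26.5% to 17.6%, against 9.70% in resting cells then. The part of depth and doublets in these differences was not tested. The Id3 call was lost without run 3 (1.40, adjusted p = 0.114), and the Tcf12 call without run 1 (-0.39, adjusted p = 0.121).

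DN4-like cells were not tested against other gates, and their values are given as a description. Only the sort of run 1 included DN4 cells. Id3 was at 166, 199 and 132 CPM in runs 1, 2 and 3, against 98.6, 47.1 and 13.8 CPM in resting DN3-like cells. Tcf12 was at 121, 129.5 and 240.0 CPM and Tcf4 at 22.5, 18.5 and 45.8 CPM, each under the resting DN3-like level of its run. Id2 was at 5.67 CPM (4.36 to 7.24) in the 1137 cells of run 1, and at 83.3 and 53.9 CPM in the 23 and 32 cells of runs 2 and 3. Thus Id3 made up nearly all Id counts of DN4-like cells in run 1, where Id2 gave 3.30% of them.

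The Sox13+ γδ-like cells differed from resting DN3-like cells in the opposite direction for Id3 and Id2. Id3 was 265 (240 to 291), 139 (124 to 156) and 109.6 (103 to 117) CPM in Sox13+ γδ-like cells of runs 1, 2 and 3, against 98.6, 47.1 and 13.8 CPM. All 3 γδ-like levels were above all 3 resting DN3-like levels, and the log2 difference was 1.998 ± 0.27 (3 runs, adjusted p = 1.22e-06), or 3.99-fold. Id2 was 10.1, 44.9 and 22.2 CPM against 30.8, 107 and 57.8 CPM, lower in every run (-1.41 ± 0.24, adjusted p = 3.46e-05). Ccl5 was at 0%, 0.0622% and 0.268% of its type 1-like level, against 9.38%, 7.45% and 6.94% in resting DN3-like cells. Of the type 1-like markers, Nkg7 went the other way in runs 2 and 3, and Cxcr3 was at 0% in both gates of run 1. The part of these transcripts in the Id2 difference was not tested. In the stricter γδ-like gate described below, the Id2 interval of run 2 overlapped that of resting DN3-like cells. Tcf4 fell by 0.42 ± 0.11 (adjusted p = 0.00293). Tcf12 was 144, 169 and 301 CPM against 194, 188 and 383 CPM and just missed the threshold (-0.29 ± 0.11, adjusted p = 0.0523), and Tcf3 was not called (-0.03 ± 0.13, adjusted p = 0.927). Of 6 members, 3 passed, 1 higher and 2 lower, where 26.4% of genes tested passed. Without run 2, the differences were 2.18 for Id3 (adjusted p = 3.08e-06) and -1.50 for Id2 (adjusted p = 0.00135). DESeq2 called Tcf12 lower (-0.34, adjusted p = 0.0185), and the stricter gates gave 0.03.

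The type 1-like and type 17-like gates differed from Sox13+ γδ-like cells more in Id2 than in any other member. In type 1-like cells, Id2 was 135 (99.1 to 181), 996 (979 to 1014) and 536 (525 to 547) CPM in runs 1, 2 and 3, against 10.1, 44.9 and 22.2 CPM, without overlap. This was a log2 difference of 4.51 ± 0.24 (3 runs, adjusted p = 2.63e-15), or 22.8-fold, and 4.42 without run 2 (adjusted p = 1.78e-10). Tcf12 was 97.1, 82.3 and 142 CPM, lower than the γδ-like level in each run (-0.91 ± 0.12, adjusted p = 8.67e-07), and Tcf4 (-0.66 ± 0.11, adjusted p = 2.69e-05) and Tcf3 (-0.39 ± 0.14, adjusted p = 0.0390) were also lower. Id3 was not called (-0.22 ± 0.24, adjusted p = 0.579), being higher in run 1 (506 against 265 CPM) and lower in runs 2 and 3 (73.4 against 139 and 83.1 against 109.6 CPM). In this comparison 4 of 6 members passed, 1 higher and 3 lower, where 22.8% of genes tested passed. The Tcf3 call was lost with DESeq2 (adjusted p = 0.113) and on leaving out any 1 of the runs.

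All 3 E protein genes were lower in type 17-like cells. Tcf4 was 7.04 (4.02 to 11.4) and 20.1 (16.1 to 24.8) CPM in runs 2 and 3, against 45.7 and 80.4 CPM in Sox13+ γδ-like cells (-2.05 ± 0.16, 2 runs, adjusted p = 9.25e-12). Tcf12 was 54.5 and 103 CPM against 169 and 301 CPM (-1.43 ± 0.14, adjusted p = 1.38e-09), and Tcf3 was 87.1 and 36.1 CPM against 189.6 and 70.7 CPM (-0.99 ± 0.16, adjusted p = 1.55e-05). For Tcf4 and Tcf12 the levels of the 2 gates did not overlap over runs, and for Tcf3 they did. Id2 was higher by 5.10 ± 0.24 (adjusted p = 7.37e-16), or 34.2-fold, and by 5.20 without run 2 (adjusted p = 3.48e-11), while Id3, at 112 and 53.7 CPM, was not called (-0.45 ± 0.29, adjusted p = 0.235). Again 4 of 6 members passed, 1 higher and 3 lower, where 38.1% of genes tested passed. The members' median was -1.13 against -0.08 for all genes, and that in the type 1-like comparison was -0.30 against -0.03.

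**Figure D3:**
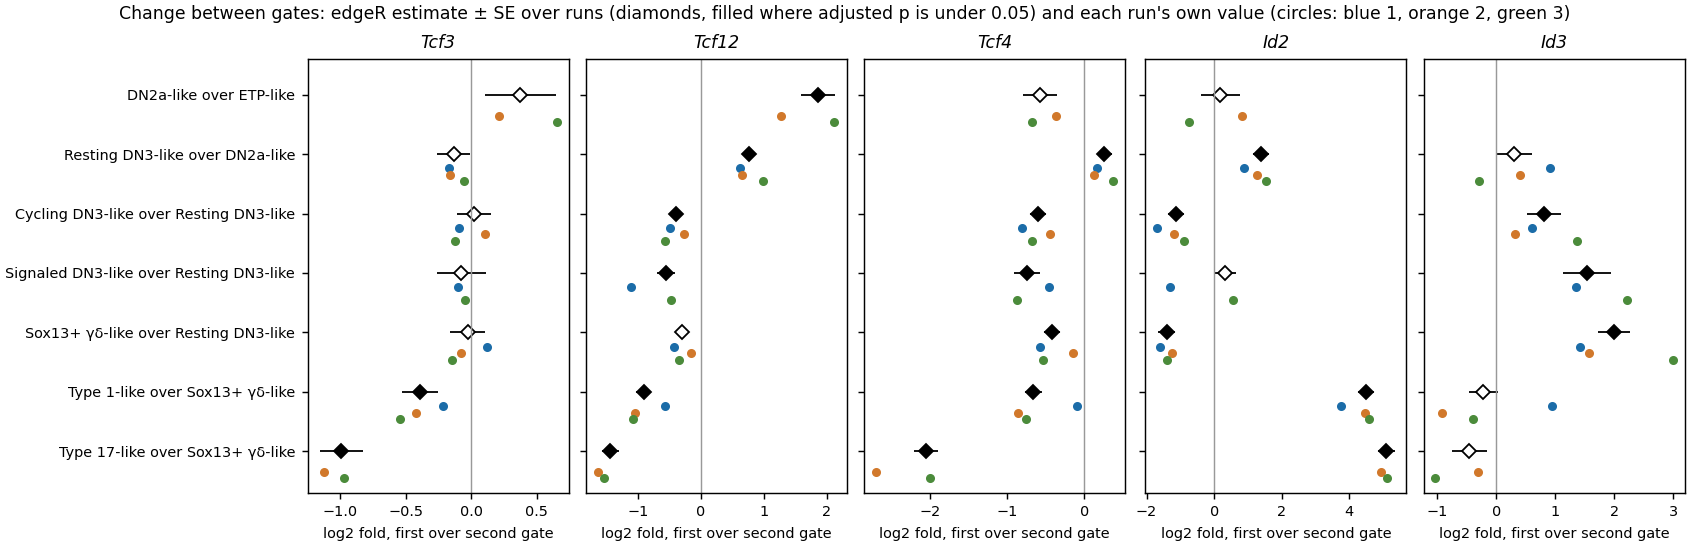
Log2 difference between 2 gates (first over second, linear axes that differ between panels) for 5 of the 6 genes, Id1 left out, with diamonds and bars for the edgeR estimate ± SE over runs, filled where the adjusted p is under 0.05, and circles for the value of each run. No Id3 value is drawn for DN2a-like over ETP-like cells. Id2 has filled diamonds at 4.51 and 5.10 in the type 1-like and type 17-like comparisons, where the circles of Id3 in the type 1-like comparison lie on both sides of 0.

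Since the gates of these lymphocytes took in cells with progenitor transcripts, they were drawn more strictly after the data were seen. Type 1-like cells then needed 2 of 6 genes other than Nkg7 and no Il2ra, type 17-like cells no Il2ra, and Sox13+ γδ-like cells no Il2ra, Kit or Cpa3, the last a mast cell protease gene also transcribed in early DN cells. This kept 21.3%, 67.7% and 60.5% of type 1-like cells of runs 1, 2 and 3, which are 13, 1902 and 1131 cells. Cells kept in runs 2 and 3 had an Id share of 92.7% (92.2 to 93.2) and 87.4% (86.7 to 88.1), and those taken out 52.6% and 47.9%. Among the latter, Cpa3 was at 355 and 214 CPM, against 40.6 and 17.4 CPM in the kept cells, and their median depth of 7021 and 11031 UMIs was above the 2721.5 and 5686 UMIs of the kept cells. The cells taken out thus carried the lower Id share in both runs. Among the kept cells, Id2 was 1792 and 958 CPM, Tcf12 57.6 and 102 CPM and Tcf3 81.3 and 29.5 CPM.

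The stricter γδ-like gate kept 40.9%, 27.4% and 26.3% of its cells. Id3 was 311 (271 to 355), 316 (262 to 378) and 165 (147 to 185) CPM in the cells kept, against 228, 103 and 95.7 CPM in those taken out. Tcf12 was 166, 248 and 394 CPM in the kept cells against 126, 153 and 277 CPM. Both genes were thus higher in the kept cells of every run. Id2 was 10.0, 88.8 (61.5 to 124) and 23.1 CPM in the kept cells. Resting DN3-like cells had 30.8, 107 (95.3 to 121) and 57.8 CPM, so the intervals overlapped in run 2. The Id share of the kept cells was 43.7%, 46.8% and 27.0%, against 40.9%, 31.9% and 22.8% in the wider gate. Against resting DN3-like cells, Id3 then differed by 2.56 (adjusted p = 1.65e-07) and Tcf12 by 0.03 (adjusted p = 0.931). Against these γδ-like cells, Id3 was now lower in type 1-like (-1.28, adjusted p = 0.00197) and in type 17-like cells (-1.07, adjusted p = 0.0149), calls that the wider gates did not give. Run 1 kept 13 type 1-like cells, too few for the fit, so the stricter type 1-like differences rest on runs 2 and 3. In the wider gates, run 1 was the run with more Id3 in type 1-like cells (506 against 265 CPM). The new type 1-like call was thus made without the run that went the other way. Id2 remained higher in type 1-like cells (5.22, adjusted p = 2.55e-12) and in type 17-like cells (4.78, adjusted p = 4.27e-11).

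**Figure D4:**
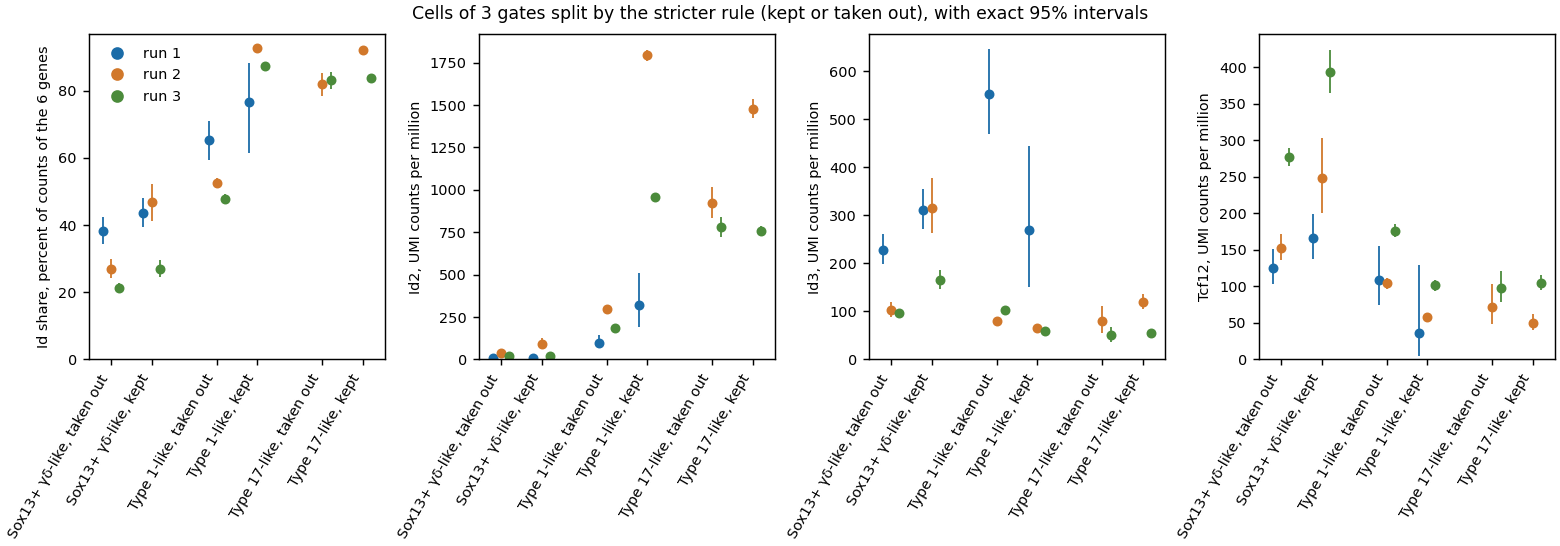
Cells of the Sox13+ γδ-like, type 1-like and type 17-like gates, split into those a stricter rule kept and those it took out, with the Id share in percent and the levels of Id2, Id3 and Tcf12 in CPM (linear axes from 0), 1 point per run and exact 95% intervals. In type 1-like cells of runs 2 and 3 the Id share is 92.7% and 87.4% in kept cells against 52.6% and 47.9% in cells taken out.

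The kept cells could be divided further by T cell receptor transcripts, as a description without a test. Of the kept type 1-like cells of runs 2 and 3, 84.1% and 73.0% held Trac (the constant region of the α chain) without Trdc (that of the δ chain), although cells stained for TCRβ had been sorted out. These had an Id share of 94.4% and 90.2%, with Id2 at 1999.6 and 1081 CPM and Id3 at 45.6 and 41.2 CPM. The 49 and 76 cells with Trdc and without Trac had 78.3% (72.7 to 83.3) and 70.7% (66.1 to 75.1), with Id2 at 809 and 477 CPM and Id3 at 153 and 112 CPM. The Trdc cells therefore had less Id2 and more Id3 in both runs. In kept type 17-like cells, the Id share of Trdc cells was 85.9% (80.2 to 90.5) in 43 cells of run 2 and 35.6% (29.5 to 42.1) in 45 cells of run 3, where their Id2 stood at 153 CPM and their Tcf12 at 307 CPM. Type 17-like cells with Trac and without Trdc had 93.3% and 90.2%. The 2 runs thus differed for Trdc cells of the type 17-like gate, and TCRγδ+ cells had been sorted out of run 2.

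Genes that E proteins are known to regulate, some raised and others lowered, were counted from a list of 14. The known direction of each gene was not scored, so the counts do not measure E protein activity. The gates were drawn on transcripts, and the part of that choice of cells in the counts was not tested in any comparison. From DN2a-like to resting DN3-like cells, 7 of 14 rose and 0 fell, where 28.9% of all genes tested were called in either direction, with a median of 0.61 against 0.02 for all genes. Notch3 (2.45 ± 0.17) and Notch1 (1.12 ± 0.14), receptors of the Notch pathway, its target Hes1 (0.65 ± 0.18), the signalling inhibitor Socs3 (0.87 ± 0.22) and the cell cycle inhibitor Cdkn1a (0.83 ± 0.18) were among them. Il7r (2.15 ± 0.50), Dntt (1.30 ± 0.28), which adds bases at receptor gene joints, and Cdk6 (0.63 ± 0.17) rose from ETP-like to DN2a-like cells, 3 of 13 tested, where 3.91% of all genes were called. In cycling against resting DN3-like cells, 8 of 14 fell and 0 rose, where 38.1% of all genes were called, with Socs3 at -1.71, Notch3 at -1.46, Hes1 at -1.32, Cdkn1a at -1.20 and Socs1 at -0.91. Signaled DN3-like cells had 6 lower and 1 higher, where 10.3% of all genes were called, with Cdkn1a at -1.21, Notch3 at -1.12, Hes1 at -0.83, Cdk6 at -0.75 and Notch1 at -0.70.

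The same genes were mostly lower in Sox13+ γδ-like than in resting DN3-like cells, with 8 of 14 lower and 1 higher, where 26.4% of all genes were called, and a median of -0.76 against 0.00487 for all genes. These counts are for the wider γδ-like gate, which was drawn on cells without Ptcra. The part of that choice of cells in the counts was not tested. Notch3 (-2.80 ± 0.20), Cdkn1a (-2.001 ± 0.22), Notch1 (-1.74 ± 0.14), Hes1 (-1.47 ± 0.19) and Socs3 (-1.45 ± 0.26) fell. Against Sox13+ γδ-like cells, type 17-like cells had 4 higher and 7 lower of 14, where 38.1% of all genes were called. Zbtb16, which encodes the innate lymphocyte factor PLZF, was higher by 5.46 ± 0.29, Il7r by 3.67 ± 0.23 and Socs3 by 2.79 ± 0.25, while Notch3 (-2.70 ± 0.46) and Dntt (-2.59 ± 0.23) were lower. In type 1-like cells 3 were higher and 4 lower, where 22.8% of all genes were called, with Zbtb16 at 3.78, Il7r at 2.19, Notch3 at -0.98, Gfi1 at -0.76 and Dntt at -0.68. Zbtb16 was at 12.4 and 59.5 CPM in type 1-like cells of runs 2 and 3 and at 57.2 and 159 CPM in type 17-like cells, against 1.78 and 3.96 CPM in the γδ-like cells.

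Partners and cofactors of E proteins made up a list of 8, of which 6 had enough counts to be tested in DN2a-like over ETP-like cells and 7 in the other comparisons. Lyl1 and Lmo2, whose products form complexes with E proteins in progenitors, fell from ETP-like to DN2a-like cells (-1.64 ± 0.36 and -4.35 ± 0.69). Lyl1 fell further to resting DN3-like cells, from 31.7, 39.3 and 26.2 CPM to 1.66, 0.380 and 0.559 CPM (-5.26 ± 0.37), and Tal1 also fell (-3.08 ± 0.79), while the adaptor Ldb1 rose by 0.41 ± 0.10. In Sox13+ γδ-like cells Lyl1 was higher than in resting DN3-like cells, at 4.41, 24.0 and 11.2 CPM (4.09 ± 0.46). The stricter rule took 59.1%, 72.6% and 73.7% of this gate out for Il2ra, Kit or Cpa3. The part of those cells in the Lyl1 level was not tested. Cbfa2t3, a corepressor that E proteins recruit, fell in all comparisons that start from resting DN3-like or γδ-like cells, by differences between -0.54 and -2.37. Bhlhe40 was higher than in γδ-like cells by 2.70 ± 0.26 in type 1-like and 2.24 ± 0.32 in type 17-like cells. In cycling DN3-like cells, Bhlhe40 fell by 1.02 ± 0.38. Over the 7 comparisons, 0 to 2 members of the list were higher and 1 to 3 lower, beside 3.91% to 38.1% of all genes called.

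Egr factors and their corepressors Nab1 and Nab2, a list of 5 that lies upstream of Id3, were at low levels. In Sox13+ γδ-like against resting DN3-like cells, 2 of 5 were higher and 0 lower, where 26.4% of all genes were called. Nab2 was 1 of these 2, at 13.9, 8.88 and 8.36 CPM against 6.24, 3.42 and 1.12 CPM (1.91 ± 0.35). Nab2 was also higher in signaled DN3-like cells (2.18 ± 0.60), the 1 gene of 5 called there, where 10.3% of all genes were called. Egr1 was highest in ETP-like cells, at 99.4 and 215 CPM in runs 2 and 3, and fell to DN2a-like cells (-2.02 ± 0.33) and then to resting DN3-like cells (-0.65 ± 0.20). In type 1-like and in type 17-like cells, 4 of the 5 were higher than in γδ-like cells (22.8% and 38.1% of all genes were called there), with Nab2 at 1.73 ± 0.20 and 2.51 ± 0.22 and Egr1 at 0.53 ± 0.18 and 0.94 ± 0.21.

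**Figure D5:**
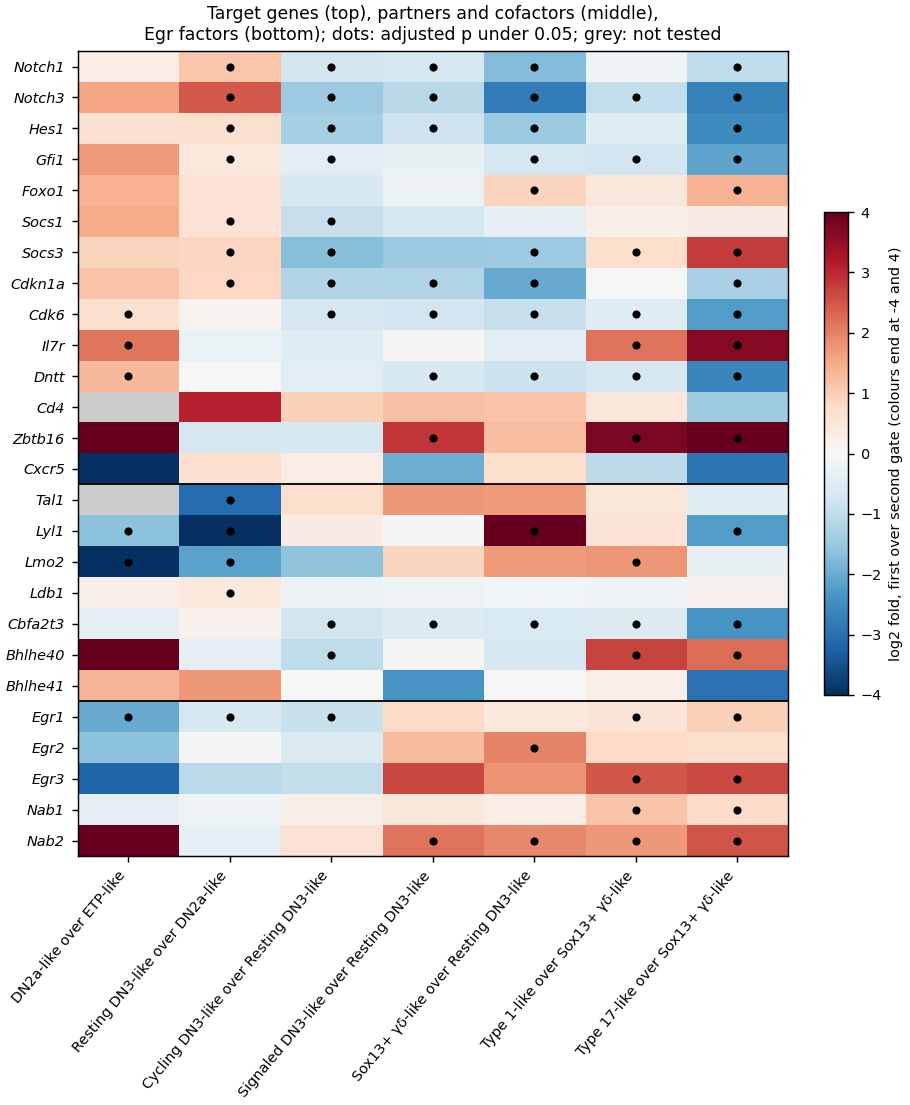
Log2 difference (colour, ending at -4 and 4) of each gene of the lists of E protein target genes, partners and cofactors, and Egr factors in the 7 comparisons between gates, first gate over second, with dots where the adjusted p is under 0.05 and grey where a gene was not tested. Notch3 turns from 2.45 in resting DN3-like over DN2a-like cells to -2.80 in Sox13+ γδ-like over resting DN3-like cells.

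Genes whose levels followed a member most closely were found by Pearson's r of log2(CPM + 1), centred within each run, over the 29 sums of a gate and a run and among 5644 genes with a mean of at least 20 CPM. The sums of a run come from 1 library, so these values are a description. For Id2 they were Pkp3 (0.92), S100a6 (0.91) and Capg (0.91), and for Tcf12 they were Rapgef3 (0.93), Aqp11 (0.92) and Fam169b (0.92), each at 0.79 or more in every run. Those of Id3 were Acp5 (0.86), Rala (0.83) and Sit1 (0.83), which in run 1 alone were at 0.52, 0.03 and 0.70. Tcf3 was followed by Pgls (0.96), H3f3a (0.94) and Aldh2 (0.93), which in run 1 alone were at 0.69, 0.32 and 0.71. Among the members themselves, r was 0.58 between Tcf3 and Tcf12, -0.50 between Id2 and Tcf3, -0.40 between Id2 and Tcf12 and 0.37 between Id2 and Id3. It was nearer to none for Id3, at 0.20 with Tcf12 and -0.16 with Tcf3, and it was 0.19 between Tcf12 and Tcf4.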

How the data were processed

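Single-cell RNA-seq (10x, 3′ ends) was made of 3 pooled thymocyte sorts. The authors deposited raw UMI counts per gene and called cell from Cell Ranger on mm10, with no normalization. The submitters' processing notes also name R 3.6.3 and Seurat 2.3, and only the header of run 3 gives its Cell Ranger version. The kit of each run is not given in the sources used here. The counts summed to 39947415, 52797915 and 98533329 UMIs in runs 1, 2 and 3. Intervals cover counting error only.

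The members, gates and gene lists were chosen with earlier results of these data known. Each of the 5516, 8852 and 7511 cells kept went to the first of 12 gates it met, on the presence of 1 UMI, and the 42 gate genes were left out of tests. Doublets were not removed. Scrublet (scanpy 1.11.5) called 0, 437 and 209 cells, and since it had not worked in run 1, an alternative removed the 8% of highest score per run.

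Counts were summed per gate and run, with at least 20 cells (10 where ETP-like cells were tested), and all gates were fitted in one model (29 and 32 sums) by edgeR (version 4.0.16, with limma 3.58.1, under R 4.3.3). The fit used TMM, filterByExpr, run as a block, the two-sided quasi-likelihood test and p-values adjusted by Benjamini and Hochberg over every gene in the fit, called under 0.05. The block pairs gates of 1 library. Simulated counts were drawn from a mean per gene pooled over all gates, with a run effect shared by the gates and the median dispersion. Only a small set of genes was changed, in the first gate compared. These counts have no gate differences that vary by run and far fewer changed genes than the real calls. The recovery and false calls of the real fit were thus not measured. On simulated counts, 47 of 47 genes changed 4-fold and 32 of 48 changed 1.5-fold were recovered for resting DN3-like over DN2a-like, with 2 false calls among 158 (11307 genes), for signaled over resting DN3-like 42 of 49 and 10 of 46, with 3 false calls among 97 (11271 genes), and for Sox13+ γδ-like over resting DN3-like 48 of 48 and 27 of 48, with 7 false calls among 165 (11321 genes). Named are the 6 members and up to 5 genes per list and comparison that passed in the same direction in every run. Genes most like a member are the 3 of highest correlation. Alternatives were a 5% mitochondrial limit, no upper limit on genes, doublet removal, cells thinned to 2000 UMIs before gating, at least 100 cells, DESeq2 1.42.0, no normalization factors, no filter, no block, leaving out each run, and stricter gates added after seeing the data. CPM values are counts scaled by all UMIs of a gate in a run. Python 3.11.15 with numpy 2.4.6, scipy 1.17.1 and pandas 2.3.3 was used for the rest. The authors' clusters were not used here, and a few genes of the lists are not reported here.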

Additional observations from a re-analysis of the deposited data

Results flagged for a closer look

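Id3 in type 1-like against Sox13+ γδ-like cells went opposite ways in different runs. The log2 difference was 0.94 in run 1, -0.93 in run 2 and -0.4 in run 3, each with a 95% counting interval that leaves out 0 (0.67 to 1.19, -1.11 to -0.74 and -0.52 to -0.28). The difference between runs was not tested, since each run is 1 library. Run 1 had 61 type 1-like cells, of which the stricter gates kept 13. Trdc was at 1434 CPM in those kept, against 160.1 and 147 CPM in runs 2 and 3. Id3 in run 1 was at 269 CPM (151 to 444) in these 13 cells and at 553 CPM (470 to 646) in the 48 taken out. Sox13+ γδ-like cells of run 1 had 311 CPM (271 to 355) where kept and 228 CPM where taken out. The intervals of the kept cells of the 2 gates overlapped.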

How the results depend on the processing

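The block pairs gates that come from 1 library. Without the replicate block, genes called went from 442 to 171 for DN2a-like over ETP-like, from 3480 to 364 for resting DN3-like over DN2a-like, from 4585 to 391 for cycling and from 1244 to 106 for signaled over resting DN3-like, from 3172 to 437 for Sox13+ γδ-like over resting DN3-like, and from 2742 to 275 and 4581 to 1215 for type 1-like and type 17-like over Sox13+ γδ-like. Of the members' calls, those of Id2 in the type 1-like and type 17-like comparisons then remained. With cells thinned before gating, 672, 408, 1294, 1825 and 1519 genes were called for resting over DN2a-like, cycling, γδ-like, type 1-like and type 17-like, with a smaller number of genes tested (9642), and the median of all genes in the cycling comparison went to -0.35. No filter on low counts gave 680 (ETP-like), no upper limit on genes 2466 and no normalization factors 700 (signaled), DESeq2 1579 (type 1-like), and the stricter gates 2408 (type 17-like). DESeq2 put 25.0% of calls higher against 41.9% for DN2a-like over ETP-like, and 69.2% against 55.8% for signaled over resting DN3-like. The cause of these moves was not tested. Leaving out 1 run gave 116 to 512, 1507 to 3214, 3053 to 3616, 358 to 1171, 1446 to 2677, 1155 to 2558 and 2684 to 4475 calls in the order in which the comparisons are given above. Where this left a gate in 1 run, that sum was assumed to vary like the others. The ETP-like and signaled comparisons could not be made with cells thinned or with at least 100 cells per gate and run, nor the signaled one with doublets removed. Gates with an Id majority numbered 4 to 6 against 5 in all alternatives. The Id share of single gates moved too. With doublets removed, that of resting DN3-like cells of run 2 went from 26.5% to 18.8%. That of signaled DN3-like cells of run 3 went from 26.5% to 17.6%.

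Among the members' calls, 221 values over alternatives kept direction and call, 53 lost the call and 1 turned, Id3 in cycling DN3-like cells (-0.16 with thinning). Among values not called, 205 stayed so, 9 were called and 22 turned. Those that turned outside the runs left out were, without the block, Id2 in DN2a-like over ETP-like (-0.0551) and in signaled DN3-like cells (-0.3343), Tcf3 in γδ-like (0.0026) and Id3 in type 1-like cells (0.28); with thinning, Tcf3 in cycling DN3-like (-0.052) and Tcf12 in γδ-like cells (0.13); with stricter gates, Tcf3 in cycling DN3-like (-0.0415), Tcf12 (0.029) and Id1 (-1.16) in γδ-like and Id1 in type 17-like cells (0.0565). DESeq2 turned Tcf3 in cycling DN3-like (-0.0211) and Id3 in type 1-like cells (0.0274), no normalization factors Tcf3 in cycling DN3-like cells (-0.0339), and a 5% mitochondrial limit Id1 in γδ-like cells (-0.0296). On leaving out 1 run, values that turned ranged from -0.4518 to 1.0364 for Id2 over ETP-like, from -1.0155 to 0.4973 for Id1 over DN2a-like, from -0.8576 to 0.5832 for Id2 in signaled DN3-like, from -0.097 to 0.0526 for Tcf3 and from -0.1019 to 0.4738 for Id1 in γδ-like, and from -0.5667 to 0.1619 for Id3 and from -0.8567 to 0.4154 for Id1 in type 1-like cells. At these depths, Id1 allowed no comparison.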

Other observations

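Cells in no gate numbered 2401, 2076 and 952 in runs 1, 2 and 3, and their Id share was 34.6%, 44.5% and 29.0%. Id2 stood at 12.7, 206 and 81.6 CPM in them. The B cell-like gate of run 3, with 510 cells although B220 had been gated out, had Tcf3 at 99.0 CPM, above the 70.3 CPM of all cells of that run, and an Id share of 21.9% (20.3 to 23.6). The 21 B cell-like cells of run 2 went the other way, with Tcf3 at 40.6 CPM (19.5 to 74.7) against 187 CPM in all cells of that run and an Id share of 47.8% (35.6 to 60.2). The 5 B cell markers summed to 829 CPM in run 2 and 4039 CPM in run 3. The myeloid-like gate of run 3, with 44 cells, had an Id share of 15.5% (11.3 to 20.4).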
